A study of Homo sapiens with 4 samples.

Results

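The genes described here make sterols and fatty acids under the control of the sterol regulatory element-binding proteins (SREBP). They are 35 genes, chosen by name with earlier results of these data known. Of cholesterol synthesis and sterol transport there are 19 (the sterol arm), and of fatty acid and glycerolipid synthesis 8 (the fatty acid arm). A further 6 regulate SREBP, and 2 export cholesterol. Of the 35, 31 had a probe named for them on the array, and 29 could be tested, among 11030 tested genes of 18348 named on the array. The samples came from H9, a long-established human embryonic stem cell line, taken 24 h after gamma irradiation (n = 2) or before it (0 h, n = 2). All 4 grew in a medium with serum replacement, basic FGF and an insulin, transferrin and selenium supplement, and expression was read on Illumina bead arrays from amplified, biotin-labelled cRNA. The labels state no radiation dose, although the series' title calls it low, and no unirradiated 24 h sample was analysed here, so irradiation and a day in culture cannot be told apart. They do not say whether replicates were separate cultures. P-values thus weigh a change only against the spread among these samples, which may be technical.

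SREBP transcription factors are made as precursors in the membrane of the endoplasmic reticulum. There SCAP, a sterol sensor, carries them to the Golgi for cleavage when membrane sterol is low, and the INSIG proteins hold SCAP back when sterol is plentiful. The released factor enters the nucleus and turns on the enzymes of the mevalonate and sterol pathways (chiefly through SREBF2) and of fatty acid synthesis (chiefly through SREBF1). Oxysterols, which act through the LXR receptors, induce the exporters ABCA1 and ABCG1 and also SREBF1. Dividing cells, among them pluripotent cells, need both products for new membrane.

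The sequences just before the transcription start are shown for 4 of the 5 members that passed the test, all but SQLE, and for MSMO1, which just missed the threshold. Each is the 250 bases before the RefSeq start in the GRCh38.p14 assembly, from 5′ to 3′ on the gene's strand. Capitals mark matches, on either strand, to a CCAAT box (CCAAT), a GC box (GGGCGG), an E-box (CACGTG) or the core of a sterol regulatory element (TCACNCCAC).
INSIG1 (chr7:155297628-155297877, plus strand): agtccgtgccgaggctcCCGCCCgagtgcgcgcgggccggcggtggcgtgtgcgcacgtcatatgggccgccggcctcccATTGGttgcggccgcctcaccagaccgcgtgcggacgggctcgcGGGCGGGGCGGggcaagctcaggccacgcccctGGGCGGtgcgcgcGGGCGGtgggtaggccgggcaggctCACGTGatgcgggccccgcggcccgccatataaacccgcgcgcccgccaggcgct
SPRING1 (chr12:116738070-116738319, minus strand): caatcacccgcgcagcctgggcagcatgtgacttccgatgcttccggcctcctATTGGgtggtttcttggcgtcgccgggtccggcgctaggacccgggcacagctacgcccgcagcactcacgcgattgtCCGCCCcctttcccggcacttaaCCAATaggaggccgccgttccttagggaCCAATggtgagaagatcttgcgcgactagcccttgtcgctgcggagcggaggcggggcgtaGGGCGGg
SREBF1 (chr17:17836987-17837236, minus strand): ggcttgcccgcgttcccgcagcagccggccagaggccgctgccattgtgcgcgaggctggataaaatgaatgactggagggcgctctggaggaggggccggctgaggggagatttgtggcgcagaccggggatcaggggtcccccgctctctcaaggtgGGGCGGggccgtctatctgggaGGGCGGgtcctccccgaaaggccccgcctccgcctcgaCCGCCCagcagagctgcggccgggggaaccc
GPAM (chr10:112183766-112184015, minus strand): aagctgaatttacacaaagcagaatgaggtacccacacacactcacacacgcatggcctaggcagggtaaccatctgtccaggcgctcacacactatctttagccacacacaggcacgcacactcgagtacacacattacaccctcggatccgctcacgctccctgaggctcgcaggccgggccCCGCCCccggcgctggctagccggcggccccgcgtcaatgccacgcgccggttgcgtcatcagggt
MSMO1 (chr4:165327419-165327668, plus strand): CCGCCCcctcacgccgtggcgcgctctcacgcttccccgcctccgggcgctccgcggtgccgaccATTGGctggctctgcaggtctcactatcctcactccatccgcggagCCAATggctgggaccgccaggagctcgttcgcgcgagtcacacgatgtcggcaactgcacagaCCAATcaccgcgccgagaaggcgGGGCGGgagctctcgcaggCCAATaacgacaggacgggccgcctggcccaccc
INSIG1 held 1 CCAAT box, 5 GC boxes, of which a neighbouring pair shares a base, and 1 E-box that begins 55 bases before the start. SPRING1 held 3 CCAAT boxes and 2 GC boxes, and MSMO1 held 4 CCAAT boxes and 2 GC boxes. SREBF1 held 3 GC boxes and GPAM 1, and neither held the letters of a CCAAT box in this window. SREBF2 was the 1 member with a match to the sterol element core, TCACCCCAC, which begins 133 bases before its start on the plus strand of chromosome 22. A window of this length held that core in 0.883% of all 35116 promoter windows. No match says only that these letters are not in the window.

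CCAAT letters stood in most windows of the sterol arm. At least 1 window held one in 14 of the 16 sterol arm genes with a promoter sequence, or in 16 of 21 windows, since some genes have several starts. Windows of the same gene can overlap, as in SC5D and ACLY, so counts of windows can hold the same site more than once. The share was 32.0% over all promoter windows and 33.2% over the 13016 windows of the genes tested here. PMVK and CYP51A1 were the sterol arm genes without a match. In the fatty acid arm 3 of 7 genes (ACLY, ACACA, SCD) had one, or 5 of 11 windows. Among the regulators it was 3 of 6 genes (INSIG1, SPRING1, SREBF2), or 3 of 7 windows. GC boxes stood in 29 of 30 members with a sequence, or in 36 of their 40 windows, against 42.6% of all windows and 63.2% of those of tested genes. E-boxes stood in 4 of the 30 (SC5D, SCAP, INSIG1, ABCA1), or in 5 of the 40 windows, against 6.35% of all windows and 8.32% of those of tested genes. The members were chosen for their role, so these shares are a description and were not tested.

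After irradiation 5 of the 29 measured members were lower and 0 were higher by the test (limma, adjusted p under 0.05 over all genes). Over all genes tested 0.925% were called lower and 1.35% higher. The 5 were the regulators INSIG1, SPRING1 and SREBF1, the sterol enzyme SQLE and the glycerolipid enzyme GPAM. In all, 24 of the 29 members stood below 0, against 50.6% of all genes tested, and the median log2 change was -0.43, against -0.01 for all genes tested. Both 24 h arrays lay below both 0 h arrays for 21 members and above them for 4, where 31.3% and 30.3% of all genes did so. At an unadjusted p under 0.05, 18 members were lower and 3 higher, against 15.3% and 15% of all genes. Since the members were chosen with earlier results of these data known, these counts are a description and the list was not tested. In bulk RNA such as this, fewer cells of a type and less RNA per cell cannot be told apart.

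**Figure D1:**
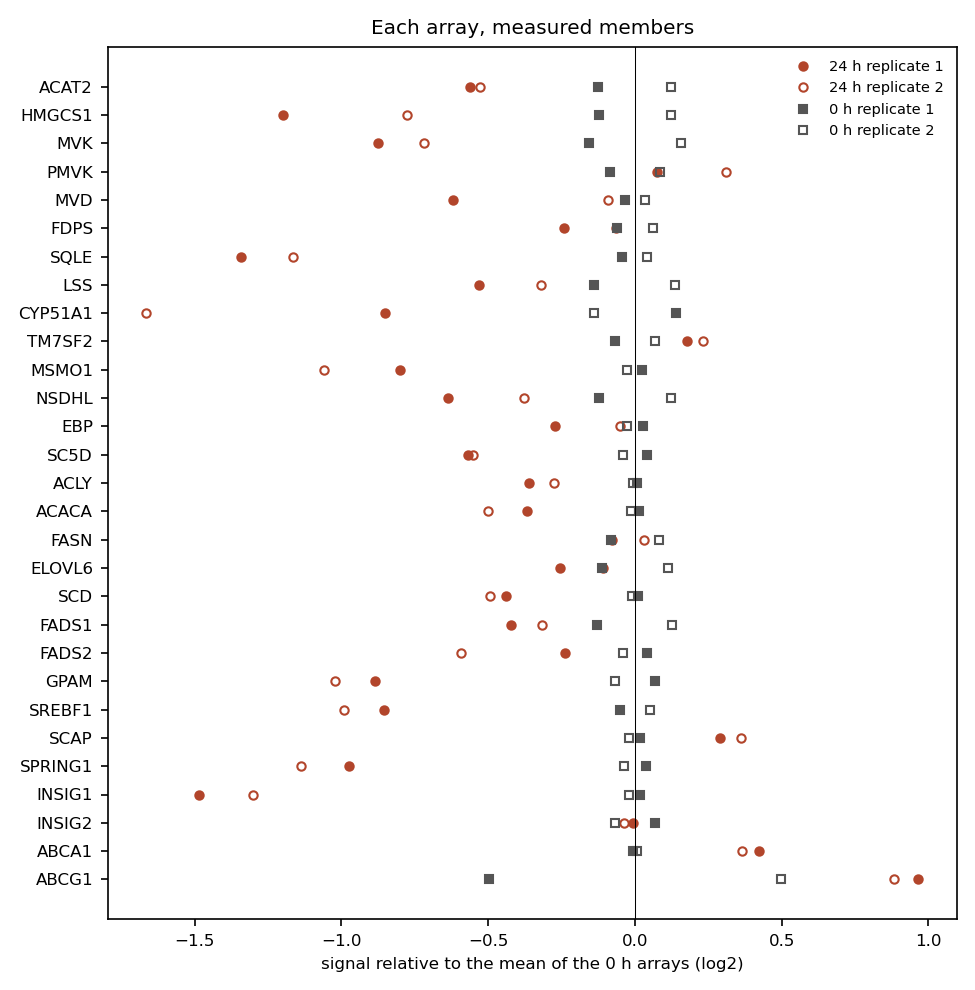
Normalized log2 signal of each of the 29 measured members on each array, relative to the mean of the 0 h arrays (x axis), with 24 h arrays as circles and 0 h arrays as squares. Both 24 h arrays lie left of both 0 h arrays for 21 genes, right of them for 4 (TM7SF2, SCAP, ABCA1, ABCG1), and the groups overlap for 4 (PMVK, FASN, ELOVL6, INSIG2).

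The calls stood close to the threshold. Adjusted p of the 5 members was 0.0447 to 0.0465, and with any 1 array left out limma called 0 genes of any kind (1831 to 3341 at an unadjusted p under 0.05), while the 5 members stayed below 0. Calls were also lost without the filter on dim probes, or with every probe tested on its own.

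Some cell markers and a measure of array quality also differed between the groups. All 9 pluripotency markers with a probe were detected on all 4 arrays and 0 passed the test (limma, with 1 at an unadjusted p under 0.05). Of these, 7 stood below 0 and 2 above, NANOG (0.31 ± 0.13) and POU5F1 (0.22 ± 0.13). Their summed signal, in which the brightest probes weigh most, was 53133 and 51856 at 24 h, against 60989 and 60150 at 0 h. Of 14 fibroblast markers 8 were measured, all 8 above 0 and 5 called higher (ACTA2, S100A4, TAGLN, VIM, COL1A1), beside 1.35% of all genes tested. The summed signal of the 8 was 21858 and 21417 at 24 h, against 12606 and 12718 at 0 h. Of the other fibroblast markers COL3A1, LUM and PDGFRA were detected on 0 arrays, and DCN, POSTN and FAP on at most 1. Markers of liver and endoderm (5 of 8 measured) summed to 428 and 407 at 24 h, against 441 and 428 at 0 h, and 4 of 6 adipocyte markers were detected on 0 arrays. The 1 adipocyte marker measured, LPL, had log2 signals of 6.47 and 6.57 at 24 h, against 5.85 and 6.18 at 0 h (0.51 ± 0.15), and did not pass (adjusted p = 0.112). The 99th percentile of signal was 69.7 and 60.4 times the median undetected signal at 24 h, against 82 and 83.1 times at 0 h. What these contribute to the members' changes was not tested. The array titles share 1 number and end in letters that differ between groups (A and B at 0 h, G and H at 24 h). The labels used here do not say what number or letters stand for. Whatever the letters mark cannot be told apart from time point.

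Among the regulators INSIG1, SPRING1 and SREBF1 fell, and SCAP and INSIG2 did not pass the test; the differences between these genes were not tested. INSIG1, which retains SCAP in the endoplasmic reticulum and is itself a strong SREBP target, had normalized log2 signals of 9.30 and 9.49 at 24 h, against 10.81 and 10.77 at 0 h. It fell 2.63-fold (log2 change -1.39 ± 0.12 SE, adjusted p = 0.0447) and ranked 23rd from the lowest change of the 11030 genes. Its relative INSIG2, which also holds SCAP back, had 7.76 and 7.72 at 24 h, against 7.83 and 7.70 at 0 h. The groups of INSIG2 overlapped, and its change was -0.02 ± 0.11 (adjusted p = 0.911), which changed sign without 0 h replicate 1.

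SPRING1, a Golgi membrane protein needed for the cleavage of SREBP, had log2 signals of 7.06 and 6.89 at 24 h, against 8.07 and 7.99 at 0 h. It fell 2.08-fold (-1.06 ± 0.12, adjusted p = 0.0456), and the groups lay well apart. Without background correction the change was -0.59 and still passed. SREBF1, the gene of SREBP-1, had 8.08 and 7.95 at 24 h, against 8.89 and 8.99 at 0 h, and fell 1.90-fold (-0.92 ± 0.12, adjusted p = 0.0465). That call was lost with the mean of its probes in place of the brightest. SCAP had 11.61 and 11.68 at 24 h, against 11.34 and 11.30 at 0 h. Its 24 h arrays were the higher ones, but the change of 0.33 ± 0.10 did not pass (adjusted p = 0.124).

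SREBF2, the gene of SREBP-2, could not be tested: its 1 probe was detected on 1 of the 4 arrays, with log2 signals of 5.79 and 5.44 at 24 h, against 5.16 and 5.43 at 0 h. A dim probe leaves its level unknown, since the probe may miss the transcript.

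**Figure D2:**
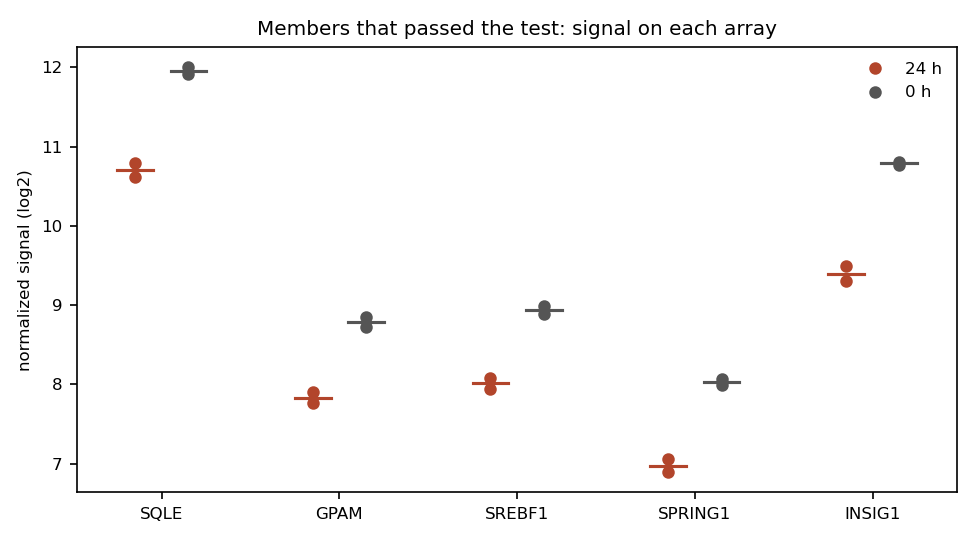
Normalized log2 signal (y axis) of the 5 members that passed the test on each array, with 24 h arrays left of 0 h arrays for each gene and a line at each mean. The 24 h points lie below the 0 h points in all 5, by 0.92 (SREBF1) to 1.39 (INSIG1) on the log2 scale; heights of different genes come from different probes and are not comparable.

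The sterol arm runs from acetyl-CoA to cholesterol, and 12 of its 14 measured genes stood below 0, with a median log2 change of -0.53 and 1 call, SQLE. In its first part, the mevalonate pathway, ACAT2, the cytosolic thiolase that joins acetyl-CoA units, had 12.03 and 12.06 at 24 h, against 12.46 and 12.71 at 0 h (change -0.54 ± 0.13, adjusted p = 0.0804). HMGCS1, the HMG-CoA synthase, had 11.62 and 12.04 at 24 h, against 12.70 and 12.95 at 0 h, and its change of -0.99 ± 0.19 did not pass (adjusted p = 0.0629). For both genes the 24 h arrays lay below both 0 h arrays. MVK, mevalonate kinase, stood at -0.80 ± 0.15 (adjusted p = 0.0631), and at -0.33 without background correction. PMVK, which adds the next phosphate, stood above 0, at 0.19 ± 0.14, with overlapping groups, so neighbouring kinases of the pathway had changes of opposite sign; the difference between them was not tested. MVD, the decarboxylase that follows, stood at -0.36 ± 0.20, and FDPS, which builds farnesyl diphosphate, at -0.15 ± 0.12. Neither passed (adjusted p = 0.306 and 0.46), and both depended on single arrays: without 24 h replicate 1 MVD stood at -0.09 and FDPS at -0.06, and without 24 h replicate 2 MVD stood at -0.62 and FDPS at -0.24.

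In the part of the arm that is specific to sterols, SQLE, squalene epoxidase and a rate-limiting enzyme, had 10.62 and 10.79 at 24 h, against 11.916 and 12.0005 at 0 h. Both 24 h arrays lay well below both 0 h arrays. It fell 2.38-fold (-1.25 ± 0.12, adjusted p = 0.0447). LSS, which closes the sterol rings, stood at -0.43 ± 0.15 (adjusted p = 0.152). CYP51A1, lanosterol demethylase, had 7.06 and 6.24 at 24 h, against 8.05 and 7.77 at 0 h. Its change of -1.26 ± 0.30 was about as large as that of SQLE, but the 24 h arrays were far apart, and it did not pass (adjusted p = 0.0805). Without background correction its change was -0.64.

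MSMO1, an oxidase that takes part in the removal of methyl groups from sterols, had 10.58 and 10.32 at 24 h, against 11.40 and 11.35 at 0 h. Its change of -0.93 ± 0.13 just missed the threshold (adjusted p = 0.0505). NSDHL, which acts after MSMO1 in the same reaction series, stood at -0.51 ± 0.16 (adjusted p = 0.116), and SC5D, a sterol desaturase, at -0.56 ± 0.10 (adjusted p = 0.0609). EBP, a sterol isomerase, had 10.42 and 10.65 at 24 h, against 10.73 and 10.67 at 0 h (-0.16 ± 0.13, adjusted p = 0.438). TM7SF2, a sterol reductase, had 10.68 and 10.73 at 24 h, against 10.43 and 10.57 at 0 h. It was the 1 sterol arm gene with both 24 h arrays above both 0 h arrays, but its change of 0.20 ± 0.11 did not pass (adjusted p = 0.287). After scaling to the 75th percentile TM7SF2 stood at 0.05 and PMVK at 0.04.

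The remaining 5 genes of the arm gave no test. IDI1, FDFT1, HSD17B7 and DHCR7 had no probe named for them here and were not analysed. The 1 probe of STARD4, a cytosolic sterol carrier, was detected on 0 of the 4 arrays, with log2 signals of 4.69 and 4.76 at 24 h, against 4.97 and 5.16 at 0 h.

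**Figure D3:**
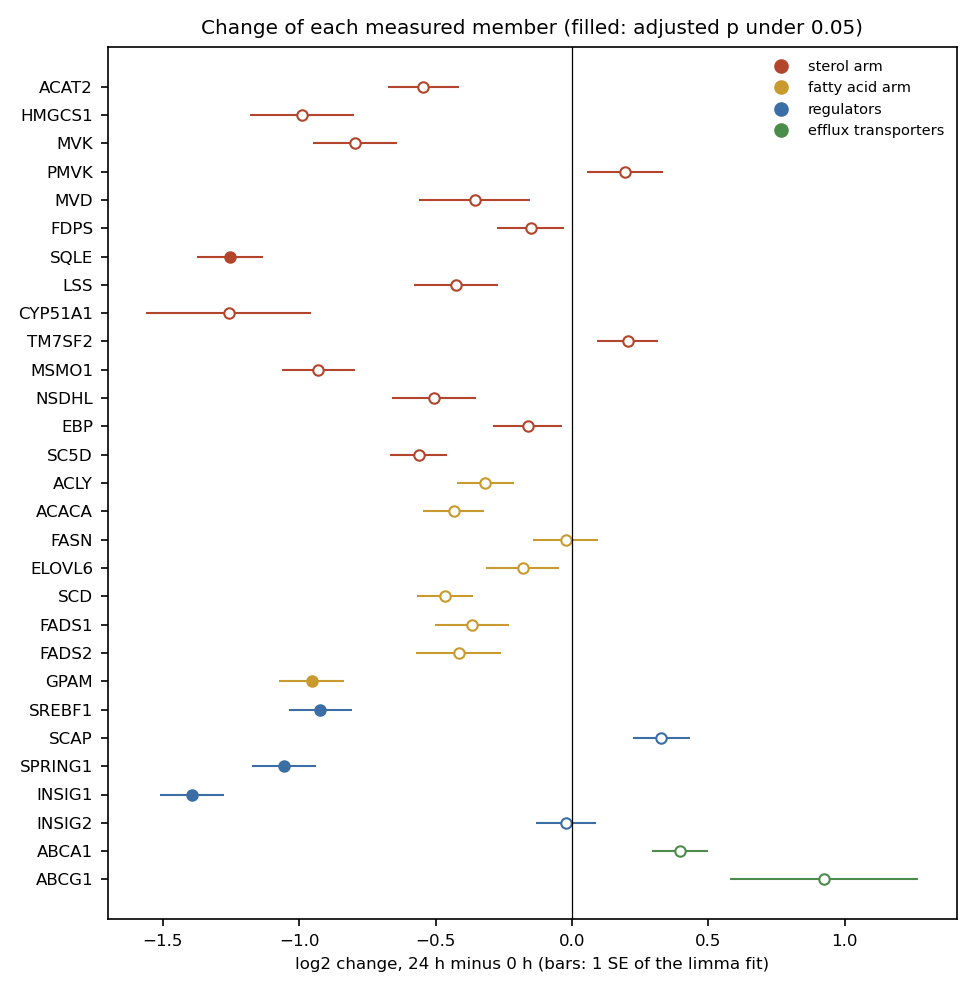
Log2 change, 24 h minus 0 h, of each measured member (x axis) with 1 SE of the limma fit as bars, coloured by role and in pathway order within the arms; filled points passed at adjusted p under 0.05. SQLE, GPAM, SREBF1, SPRING1 and INSIG1 are filled and lie between -0.92 and -1.39, and 5 open points (PMVK, TM7SF2, SCAP, ABCA1, ABCG1) lie right of 0.

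The fatty acid arm had 8 of 8 measured genes below 0, with a median of -0.39 and 1 call, GPAM. GPAM, the mitochondrial acyltransferase that starts glycerolipid synthesis, had 7.90 and 7.77 at 24 h, against 8.86 and 8.72 at 0 h, and fell 1.94-fold (-0.95 ± 0.12, adjusted p = 0.0465). The groups did not overlap, and the next largest change of the arm was -0.47, for SCD. SCD, which puts the double bond into saturated acyl chains, had 12.86 and 12.80 at 24 h, against 13.31 and 13.29 at 0 h (-0.47 ± 0.10, adjusted p = 0.072). Its arrays within each group lay close together and the groups did not overlap.

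ACACA, acetyl-CoA carboxylase, stood at -0.43 ± 0.11 (adjusted p = 0.0874), and ACLY, which makes cytosolic acetyl-CoA from citrate, at -0.32 ± 0.10 (adjusted p = 0.131). The desaturases of polyunsaturated chains stood at -0.37 ± 0.14 (FADS1, adjusted p = 0.159) and -0.42 ± 0.16 (FADS2, adjusted p = 0.164). FASN, the fatty acid synthase itself, had 13.19 and 13.30 at 24 h, against 13.18 and 13.35 at 0 h. Its groups overlapped, and the change of -0.02 ± 0.12 (adjusted p = 0.915) turned positive after scaling to the 75th percentile (0.03). ELOVL6, which lengthens the product of FASN, had 11.38 and 11.53 at 24 h, against 11.52 and 11.75 at 0 h, again with overlap (-0.18 ± 0.13, adjusted p = 0.423).

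Both exporters stood above 0. ABCA1, which loads cholesterol onto lipoprotein particles, had 9.49 and 9.43 at 24 h, against 9.06 and 9.07 at 0 h. Its groups did not overlap, and the change of 0.39 ± 0.10 did not pass (adjusted p = 0.0902). ABCG1, which also exports sterol, had 6.34 and 6.25 at 24 h, against 4.87 and 5.87 at 0 h (0.92 ± 0.35, adjusted p = 0.162). The probe of ABCG1 passed detection on each 24 h array but on just 1 of the 0 h pair, so the size of the change rests on a signal near background. The change was 0.43 without 0 h replicate 1, 1.42 without 0 h replicate 2 and 0.30 without background correction. Its other 3 probes were detected on 0 arrays.

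Set side by side, the median log2 change was -0.92 in the regulators, -0.53 in the sterol arm, -0.39 in the fatty acid arm and 0.66 in the 2 exporters, with no test of these differences. The mean over the measured sterol arm, relative to 0 h, was -0.59 and -0.49 on the 24 h arrays, against -0.05 and 0.05 on the 0 h arrays. For the fatty acid arm it was -0.38 and -0.41 at 24 h, against -0.02 and 0.02 at 0 h. For the regulators it was -0.61 and -0.62 at 24 h, against 0.02 and -0.02 at 0 h. For the exporters it was 0.69 and 0.62 at 24 h, against -0.25 and 0.25 at 0 h. The 24 h arrays thus stood below the 0 h arrays in both arms and the regulators, and above them in the exporters. The sterol arm's 24 h pair lay farthest apart. Changes of single genes ran from -1.26 to 0.20 in the sterol arm (14 genes) and from -0.95 to -0.02 in the fatty acid arm (8 genes). Such ranges widen with the number of genes, and the spread of the arms was not tested. The 5 measured regulators had both the lowest change of all members (INSIG1) and 1 above 0 (SCAP), so their median rests on few genes, and it was -0.47 without the filter on dim probes, when SREBF2 entered.

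**Figure D4:**
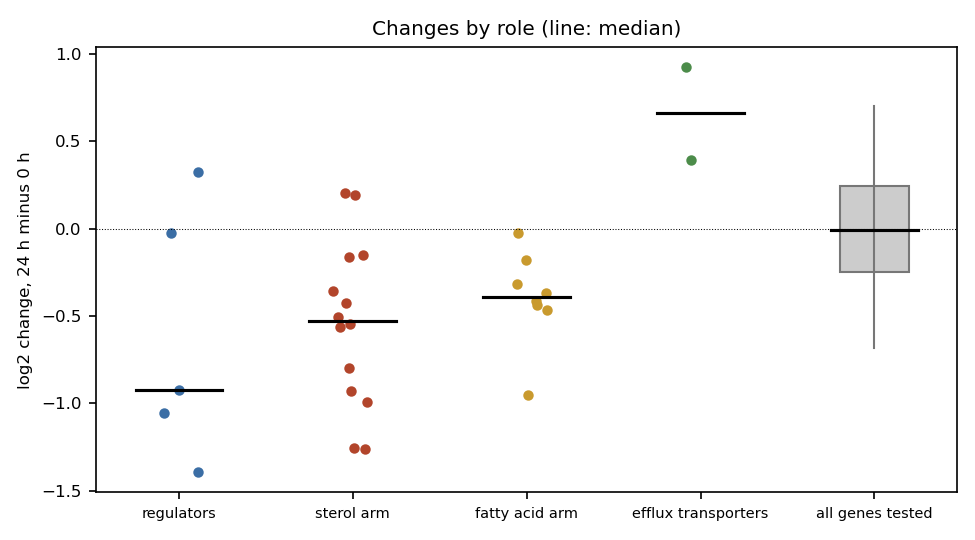
Log2 change, 24 h minus 0 h, of the measured members by role (points, with a line at the median), beside all 11030 genes tested, whose box spans the 25th to 75th percentile (-0.25 to 0.24) and whose whisker spans the 5th to 95th (-0.68 to 0.70). Medians are -0.92 for the regulators, -0.53 for the sterol arm, -0.39 for the fatty acid arm and 0.66 for the exporters.

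For 10 measured members 2 or more probes were kept, and in 9 of these the probes of the gene pointed the same way. The filter kept the second probe of INSIG1 and a probe of LSS (-0.91) through the 0 h arrays alone. That choice favours a sign below 0 for these probes. The second probe of SQLE had 8.73 and 8.95 at 24 h, against 10.06 and 10.09 at 0 h, a difference of -1.24 beside -1.25 for the probe used. The GPAM probes had changes of -0.95 and -0.98, and the MSMO1 probes of -0.93 and -0.97. In these 3 genes the changes of both probes thus lay close together. The second probe of INSIG1 was dim, detected on neither 24 h array, with a difference of -0.66 beside -1.39, taken near background. The probe of SREBF1 assigned to another transcript was detected on all 4 arrays and differed by -0.40, beside -0.92, so the size of the SREBF1 change depends on the probe. ELOVL6 was the exception in sign, at 0.05 for its dimmer probe and -0.18 for the one used.

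**Figure D5:**
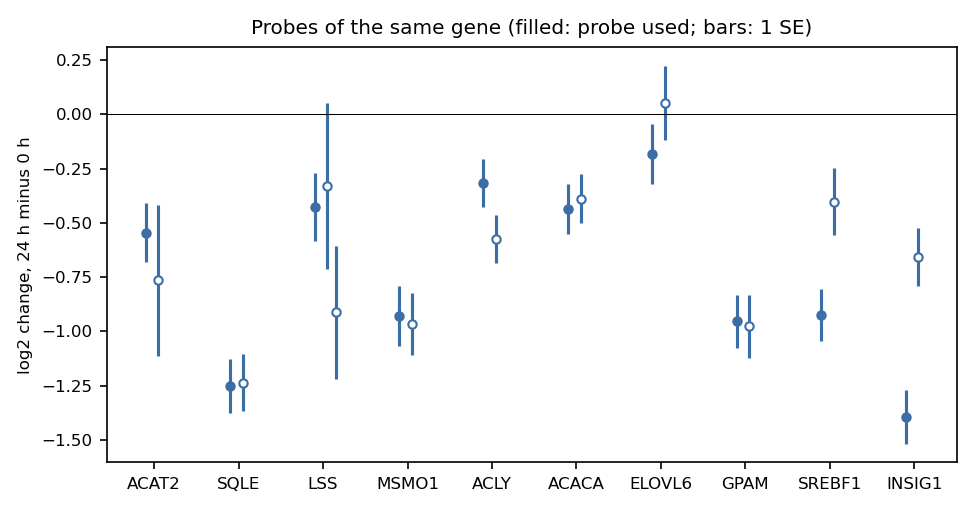
Log2 change, 24 h minus 0 h (y axis), of every kept probe of the 10 members with several, with 1 SE of a fit over single probes; filled points are the probes used. The probes of SQLE, MSMO1 and GPAM lie close together, INSIG1 and SREBF1 have a second probe with a smaller change, and 1 probe, of ELOVL6, lies above 0.

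Other genes around the pathway were counted from lists chosen by function, also with earlier results of these data known. Of 23 further genes of sterol synthesis and SREBP handling, 16 were measured, 11 of them below 0 with a median of -0.17, and 0 passed (limma). At an unadjusted p under 0.05, 4 of them were lower and 0 higher, beside 15.3% and 15% of all genes tested. The largest change there was that of TMEM97, a sterol-regulated membrane protein (-0.58 ± 0.15, adjusted p = 0.0916). Next came NUS1 (-0.49 ± 0.12) and DHDDS (-0.36 ± 0.10), which take part in making dolichol from farnesyl diphosphate. LBR, which shares its reductase activity with TM7SF2, stood at -0.33 ± 0.21, and MBTPS2, the protease that makes the second cut in SREBP, at -0.31 ± 0.13. In fatty acid supply and use, 23 of 37 were measured, 15 below 0 with a median of -0.16. Here 1 rose and 0 fell by the test, beside 1.35% higher and 0.925% lower over all genes. At an unadjusted p under 0.05, 6 were lower and 1 higher, so the single call has the opposite direction from most of these. The riser was MLXIPL, which encodes the glucose-responsive lipogenic factor ChREBP, with 8.08 and 8.15 at 24 h, against 6.93 and 6.91 at 0 h (2.29-fold, 1.20 ± 0.10, adjusted p = 0.0447). Further large changes were those of the acyltransferases AGPAT4 (-0.80 ± 0.19) and DGAT2 (-0.61 ± 0.10), the chain-lengthening dehydratase HACD2 (-0.67 ± 0.18) and the acetyl-CoA synthetase ACSS2 (-0.56 ± 0.18), none of which passed.

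Of 28 genes of sterol uptake, storage, trafficking and the LXR receptors 23 were measured, with 15 above 0, 8 below 0 and a median of 0.25. By the test 2 rose and 0 fell, beside the same 1.35% and 0.925% of all genes. At an unadjusted p under 0.05, 8 were higher and 2 lower, beside 15% and 15.3% of all genes. ABCG4, a sterol exporter related to ABCG1, had 7.22 and 7.17 at 24 h, against 5.95 and 6.07 at 0 h (2.28-fold, 1.19 ± 0.11, adjusted p = 0.0447). ANGPTL4, a secreted inhibitor of lipoprotein lipase, had 8.69 and 8.76 at 24 h, against 6.71 and 6.67 at 0 h (4.12-fold, 2.04 ± 0.10). ABCA3, a lipid transporter (0.92 ± 0.22), and VLDLR, a lipoprotein receptor (0.63 ± 0.10, adjusted p = 0.0547), did not pass. CH25H, which makes an oxysterol, was detected on neither 24 h array and on both 0 h arrays, which gives at least 1.06-fold lower at 24 h. It did not pass (limma, adjusted p = 0.0748), but was 1 of the 2 lower at an unadjusted p under 0.05. The filter kept its probe through the 0 h arrays alone, which favours this direction.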

How the data were processed

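Per the file headers, the deposited non-normalized table gives the linear bead intensity of 47217 probes on every array, each with its detection p-value. The authors also deposited log2 values for 34466 of these probes. Per the submitters' processing notes limma was used; its version is not given in the sources used here. Each column of that log2 table correlated at 0.99998 with the values computed here for the same array and differed by at most 0.0563; its medians were 5.35 to 5.36, and the rule that chose its probes is unknown.

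Here neqc of limma 3.58.1 (R 4.3.3) corrected the intensities for background with an offset of 16, took log2 and quantile normalized them. Probes with a detection p under 0.05 on at least 2 arrays were kept (20361), and 14235 of them had 1 gene symbol in the platform annotation, checked against RefSeq by Entrez identifier. The probe with the highest mean stood for its gene, which gave 11030 genes. Per array 19705 to 20443 probes were detected; the number of arrays limits the precision. Genes were fitted with lmFit and eBayes, 24 h against 0 h, two-sided, with Benjamini-Hochberg adjustment over all genes and a threshold of 0.05; changes are log2 differences, given with their standard error (SE). Where neither array of a group detected a gene, its fold is a lower limit, set against each array's dimmest detected probe or the gene's own signal, whichever is brighter. The fit was tested on simulated data.

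All members were accounted for, arms follow textbook roles, and other pathway genes were named when they passed or had one of the 5 largest changes of their list. Members and lists were chosen with earlier results of these data known, so no list was tested. Alternatives covered normalization, background, offset, filters, probe choice, prior, replicate block and each array left out; the fit of single probes was added after seeing the data.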

Additional observations from a re-analysis of the deposited data

How the results depend on the processing

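The 5 called members stayed below 0 under all 15 alternatives, and 4 of them (all but SREBF1) passed under 8. The count of members called lower was 5, against 8 after scaling to the 75th percentile, 17 without background correction, 12 with an offset of 50, 12 with detection on all 4 arrays, 10 with a detection p under 0.01 and 17 with the trend and robust prior; GPAM, INSIG1, SPRING1, SQLE and SREBF1 were among them in each of these. Members called higher numbered 2 (ABCA1 and SCAP) without background correction and with the trend and robust prior, and 0 otherwise. Genes called in all were 251, against 721 with 75th percentile scaling, 2319 without background correction, 1357 with the offset of 50, 388 with the authors' log2 table, 1370 with detection on all 4 arrays, 1240 with a detection p under 0.01 and 2522 with the trend and robust prior. Of the genes called, 59.4% were higher, against 49.8% with 75th percentile scaling.

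No filter, the replicate block and the fit of single probes called 0 genes and 0 members (limma; 3456, 3828 and 4103 at an unadjusted p under 0.05), as did leaving out any array (range 0 to 0 for both counts; 1831 to 3341). A left-out array leaves 1 in its group, assumed to vary like the others. The labels do not say that replicate numbers pair arrays. Deviations of same-numbered arrays correlated at 0.154 over genes, and with 2 pairs they were not treated as paired.

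The median of the sterol arm was -0.53 and ran from -0.60 to -0.40 with an array left out. The median of the fatty acid arm was -0.39, with -0.44 after 75th percentile scaling, -0.33 without background correction, -0.34 with the offset of 50, -0.41 with the mean of probes and -0.40 to -0.36 with an array left out. The regulators' median of -0.92 was -1.02, -0.59, -0.84 and -0.66 in the same 4 settings and -0.47 without a filter. The exporters' median of 0.66 was 0.31 without background correction and 0.39 with detection on all 4 arrays, which left ABCA1 alone, and ran from 0.41 (without 0 h replicate 1) to 0.91 (without 0 h replicate 2) with an array left out. Single members changed sign in 4 cases, none called: FASN was 0.0308 with 75th percentile scaling and ran from -0.105 to 0.0583 with an array left out (above 0 without 24 h replicate 1 and without 0 h replicate 2), and INSIG2 ran from -0.0898 to 0.0449 (above 0 without 0 h replicate 1). The cause of these differences was not tested, beyond fewer arrays or other genes tested.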
